A study of Mus musculus with 16 samples.

Results

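The fusion of interleukin 4 and interleukin 10 into 1 molecule (IL4-10 FP) was compared directly with the same 2 cytokines given unlinked (IL4+IL10, called the combination here) by RNA sequencing of mouse dorsal root ganglia (DRG), the clusters of sensory nerve cell bodies beside the spinal cord. The comparison uses 11 of the 16 libraries of the study, 6 from the fusion protein and 5 from the combination, and the 5 vehicle (PBS) libraries serve as a reference. All 16 libraries came from C57BL/6 mice with a carrageenan injection of 20 µl at 2% in the paw, which causes lasting inflammatory pain. On day 6, 1 µg fusion protein, 0.5 µg of each cytokine or PBS was injected intrathecally, and the L3 to L5 ganglia were taken 6 hours later. The doses are matched by total protein mass as stated, and a molar match was not stated. No genetic modification is named for any group, and sex, age, the side of the ganglia and whether ganglia of several mice were pooled are not given in the sources used here. The labels do not say that each library is a different mouse, so p-values measure the spread between these libraries.

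Interleukin 4 acts through IL4RA paired with the common gamma chain IL2RG or with IL13RA1, and signals mainly through JAK kinases and STAT6. Interleukin 10 acts through IL10RA and IL10RB, JAK1, TYK2 and STAT3, and in macrophages it induces a set of genes that restrain inflammation, such as Socs3 and Il1rn. Interferons use receptors of their own, whose signal switches on antiviral genes. DRG hold neurons, satellite glia, Schwann cells, vessels and resident macrophages, and macrophages are well-known targets of both cytokines.

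Levels are given as scaled values, the whole numbers recovered from the deposited table, which are normalised between libraries and are not read counts. Differences are fusion protein minus combination on the deposited variance-stabilised log2 scale, which compresses low genes, with the standard error of a limma fit over all 16 libraries. A gene was called higher or lower at a Benjamini-Hochberg adjusted p under 0.05 over 13385 tested genes.

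The libraries differed in ways that run alongside the groups. Summed scaled values were 16707007 to 19083947 in the fusion protein libraries and 18192127 to 20879857 in the combination libraries; read depth is unknown. Each library's log2 values, taken relative to the gene means over the 16 libraries, were fitted on GC content and log2 exonic length together. The GC slope, per SD of GC content, was 0.0153 ± 0.0586 (SD, n = 6) with the fusion protein and -0.0888 ± 0.0448 (SD, n = 5) with the combination. An exact two-sided permutation test gave p = 0.0173, or 0.0346 adjusted over 2 slopes. The adjusted p was 0.0190 to 0.0762 when 1 library was left out. It was above 0.05 without fusion protein replicate 4, 5 or 6 or combination replicate 2, 4 or 5. The running number in the sample labels, whose meaning is not stated, was 13 to 17 in every combination library and 5 to 8 in 4 fusion protein libraries; the other 2 fusion protein libraries, replicates 5 and 6, carry 12 and 19. Treatment and label number therefore cannot be told apart for most libraries, and a repeat on numbers from 12 upward rests on 2 fusion protein libraries, 5 combination libraries and 1 vehicle library. Some libraries stood apart. On the first principal component, with 33.6% of the variance, combination replicate 1 lay at 1.95 and the other combination libraries at 14.8 to 22.5. Fusion protein replicate 2 lay at -1.31 and the other fusion protein libraries at -19.2 to -9.49. Among the treated libraries, fusion protein replicates 1 and 2 had the lowest median correlations with their own group (0.9840 and 0.9868). Combination replicate 1 was close, at 0.9872, and vehicle replicate 1 was at 0.9860. All 15 pan-neuronal and sensory neuron markers passed the expression filter, and 7 of 10 spinal cord markers did not.

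With the fusion protein 984 genes were higher (7.35% of those tested) and 2966 genes lower (22.2%) than with the combination, 29.5% in either direction. These shares are the background to every list count below. The 2 directions differed in size. Of the higher genes 100 differed by 1 or more and 363 by 0.5 or more, with a median of 0.40; of the lower genes 1 differed by 1 or more and 68 by 0.5 or more, with a median of -0.27. Among the 100 genes higher by 1 or more, 92 had every fusion protein library above every combination library. The median difference of all tested genes was -0.09. For 11173 genes, 83.5% of those tested, the 95% interval lay within 0.5 of no difference.

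**Figure D1:**
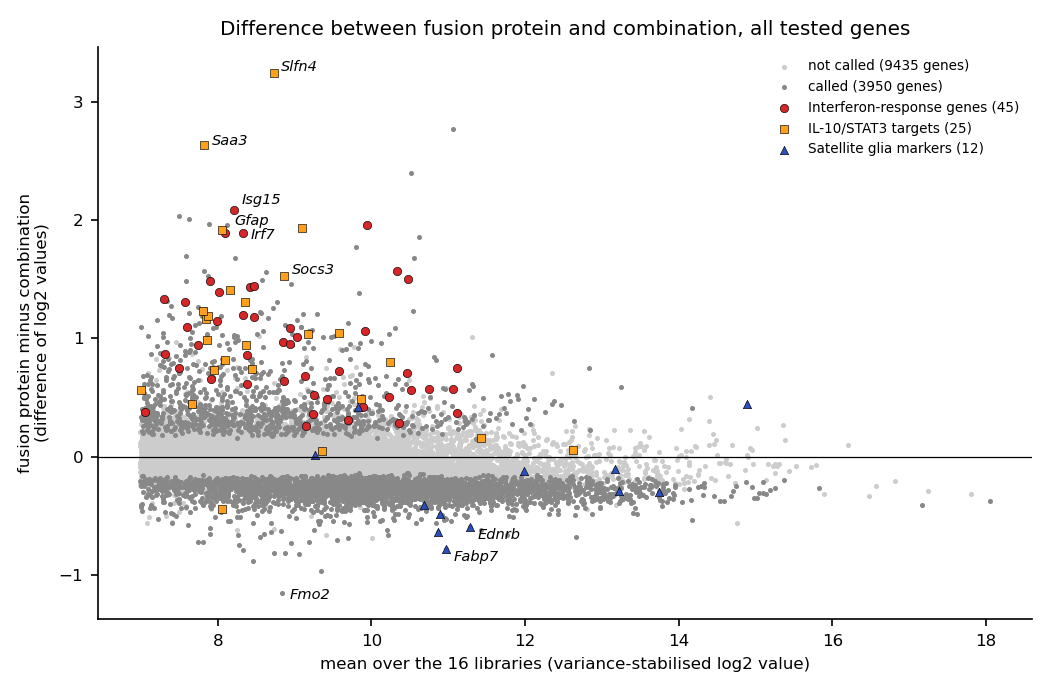
Difference between fusion protein and combination (vertical axis, log2 values) against mean level (horizontal axis, mean log2 value over 16 libraries) for 13385 genes; dark grey marks the 3950 called genes and coloured symbols mark 3 gene lists. The called genes above 0 reach past 3, while 1 called gene lies below -1, and interferon-response and IL-10/STAT3 genes lie mostly in the upper part.

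Genes called higher had a median GC content of 51.1% and genes called lower 41.9%, against 45.7% over all tested genes, and a median exonic length of 3705 bases against 6137. After removal of each library's trend on GC content and gene length, called GC correction here, 569 genes were higher and 1991 lower; on label numbers from 12 upward the counts were 1389 and 2474, and with both steps 426 and 470, of which 306 and 238 were also called with all libraries. Leaving out combination replicate 2 lowered the counts to 547 and 1452, and without combination replicate 5 they were 646 and 1850; without fusion protein replicate 4 the lower count was 1869. With quantile normalization 40.8% of the calls were in the higher direction, and with median centring 33.2%, against 24.9% as deposited. The part of GC content and label number in the small differences was not tested.

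The ligand-binding receptor chains of both cytokines and the common gamma chain were higher with the fusion protein, while Il10rb and the STAT genes Stat3 and Stat6 were not called. Of the 18 genes of the receptor and signalling panel, 17 passed the filter (1, Socs1, did not); 8 were called higher, 1 lower and 8 neither, against a background of 7.35% higher and 22.2% lower over all tested genes. Il4ra, the binding chain for interleukin 4, had scaled values of 751, 812, 900, 782 and 846 in combination replicates 1 to 5, and 1289, 1335 and 2627 (lowest, median and highest) with the fusion protein. The groups did not overlap, and the difference was 0.80 ± 0.16 (adjusted p = 0.00514). Il10ra, which binds interleukin 10, had 145, 83, 103, 93 and 86 with the combination and 120, 167 and 212 with the fusion protein, a difference of 0.41 ± 0.10 (adjusted p = 0.00957); combination replicate 1 overlapped the fusion protein group. Il2rg, the common gamma chain, differed by 0.42 ± 0.11 (adjusted p = 0.0107). Il13ra1, the other partner of Il4ra, differed by 0.44 ± 0.16 (adjusted p = 0.0424), a call that ended in 9 of the 16 repeats that left out 1 library and on label numbers from 12 upward (0.12, adjusted p = 0.367). Without fusion protein replicate 1 the difference was 0.27.

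Il10rb, the second interleukin 10 receptor chain, was not called, at -0.01 with a 95% interval of -0.14 to 0.12. Stat6 and Stat3, the main signal carriers of interleukin 4 and interleukin 10, were at 0.01 (95% interval -0.13 to 0.14) and 0.06 (95% interval -0.13 to 0.25). The kinase genes Jak2 and Tyk2 were not called either, with 95% intervals of -0.30 to 0.32 and -0.06 to 0.23, although Jak2 was lower, at -0.34, on label numbers from 12 upward (adjusted p = 0.0294). Jak1, the kinase used by both receptors, was lower, at -0.26 ± 0.07 (adjusted p = 0.017), and Jak3, which pairs with the common gamma chain, was higher by 0.44 ± 0.11 (adjusted p = 0.0106). Both calls moved with the processing: Jak1 had an adjusted p of 0.0972 on label numbers from 12 upward and a difference of -0.17 after GC correction, and Jak3 of 0.107 after GC correction. Stat5a (0.33 ± 0.10, adjusted p = 0.0228) and Irs2, an adaptor of the interleukin 4 receptor (0.35 ± 0.11, adjusted p = 0.0252), were called higher, at adjusted p = 0.0709 and 0.0521 after GC correction, and without combination replicate 2 at 0.0548 and 0.0586. Stat5a was also above 0.05 without combination replicate 5 (0.0629) and on label numbers from 12 upward (difference 0.17, adjusted p = 0.268), and Irs2 without fusion protein replicate 5 (0.0502) or combination replicate 4 (0.0538). Stat5b (0.14), Socs2 (-0.06) and Cish (0.25), the last 2 being feedback inhibitors, were not called. The panel count fell from 8 to 4 without combination replicate 2, and to 5 without replicate 4 or replicate 5 of the combination.

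Socs3, the feedback inhibitor that STAT3 switches on, was higher with the fusion protein, with a wide spread. Its scaled values were 140, 159, 150, 123 and 115 with the combination and 285, 462 and 1811 with the fusion protein, and 142 to 1102 with vehicle. The treated groups did not overlap, fusion protein replicates 1 and 2 were the highest, and the mean ratio was 5.31. The difference of 1.52 ± 0.46 had an adjusted p of 0.0256, which became 0.0681 after GC correction, and 0.0535, 0.0504 and 0.0536 without combination replicates 2, 4 and 5. On label numbers from 12 upward the difference was 0.73 (adjusted p = 0.000336). Against vehicle the combination was at -1.09 and the fusion protein at 0.44, and neither was called.

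Genes that interleukin 10 and STAT3 are known to induce were higher with the fusion protein. Of 25 tested members of the list, 21 were called higher and 1 (Cd163, adjusted p = 0.0516 after GC correction) lower, 20 had every fusion protein library above every combination library (3.09% of all genes did), and the median difference was 0.99 against -0.09 over all genes. Slfn4, a Schlafen gene of myeloid cells that is also counted on the Schlafen list below, differed most of all 13385 genes. It had 87, 73, 55, 66 and 70 with the combination and 811, 1321 and 5286 with the fusion protein, a ratio of means of 27 and a difference of 3.24 ± 0.35 (adjusted p = 0.000141). No library of either group came near the other group. Il1rn encodes the natural antagonist of the interleukin 1 receptor. Its scaled values were 88, 57, 44, 33 and 64 with the combination against 258, 382 and 1459 with the fusion protein, and the difference was 1.92 ± 0.32 (adjusted p = 0.00282). Timp1, a protease inhibitor, was higher by 1.94 ± 0.43 (adjusted p = 0.00864; 0.0921 on label numbers from 12 upward). Msr1, a scavenger receptor, and Fcgr1, the high-affinity IgG receptor, were higher by 1.19 ± 0.16 (adjusted p = 0.00044) and 1.16 ± 0.18 (adjusted p = 0.00146).

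Against the shared vehicle group, the median of the interleukin 10 list was 0.51 with the fusion protein and -0.15 with the combination. Fusion protein replicate 1 had a list median of 1.34 relative to the mean of all libraries, and the other 5 fusion protein libraries lay between 0.16 and 0.46, above the combination range of -0.55 to -0.28. After GC correction the list median was 0.75 with 17 members called higher, and on label numbers from 12 upward it was 0.64 with 18; with both steps it was 0.37 with 11.

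Interleukin 4 target genes gave calls in both directions, and whether they differed from the interleukin 10 list was not tested. Of the 23 listed genes 6 fell below the filter; of the other 17, 6 were called higher, 1 lower and 10 neither, with a median of 0.29. Arg1, the arginase that marks interleukin 4 treated macrophages, had 43, 14, 39, 25 and 153 with the combination and 211, 228 and 629 with the fusion protein, a difference of 1.49 ± 0.25 (adjusted p = 0.00255; 0.0526 on label numbers from 12 upward). Combination replicate 5 was the highest of its group and still below every fusion protein library. Tgm2, a transglutaminase induced by interleukin 4 in macrophages, was higher by 1.68 ± 0.35 (adjusted p = 0.00733), with 590 to 1188 against 1599 to 6673. Mgl2, a lectin of macrophages and dendritic cells that interleukin 4 also induces, went the other way: it had 391, 336, 367, 259 and 450 with the combination and 88, 153 and 184 with the fusion protein, a difference of -0.88 ± 0.13 (adjusted p = 0.00054), again with no overlap. Without combination replicate 4 the count of members called higher fell from 6 to 3, and after GC correction it was 2.

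**Figure D2:**
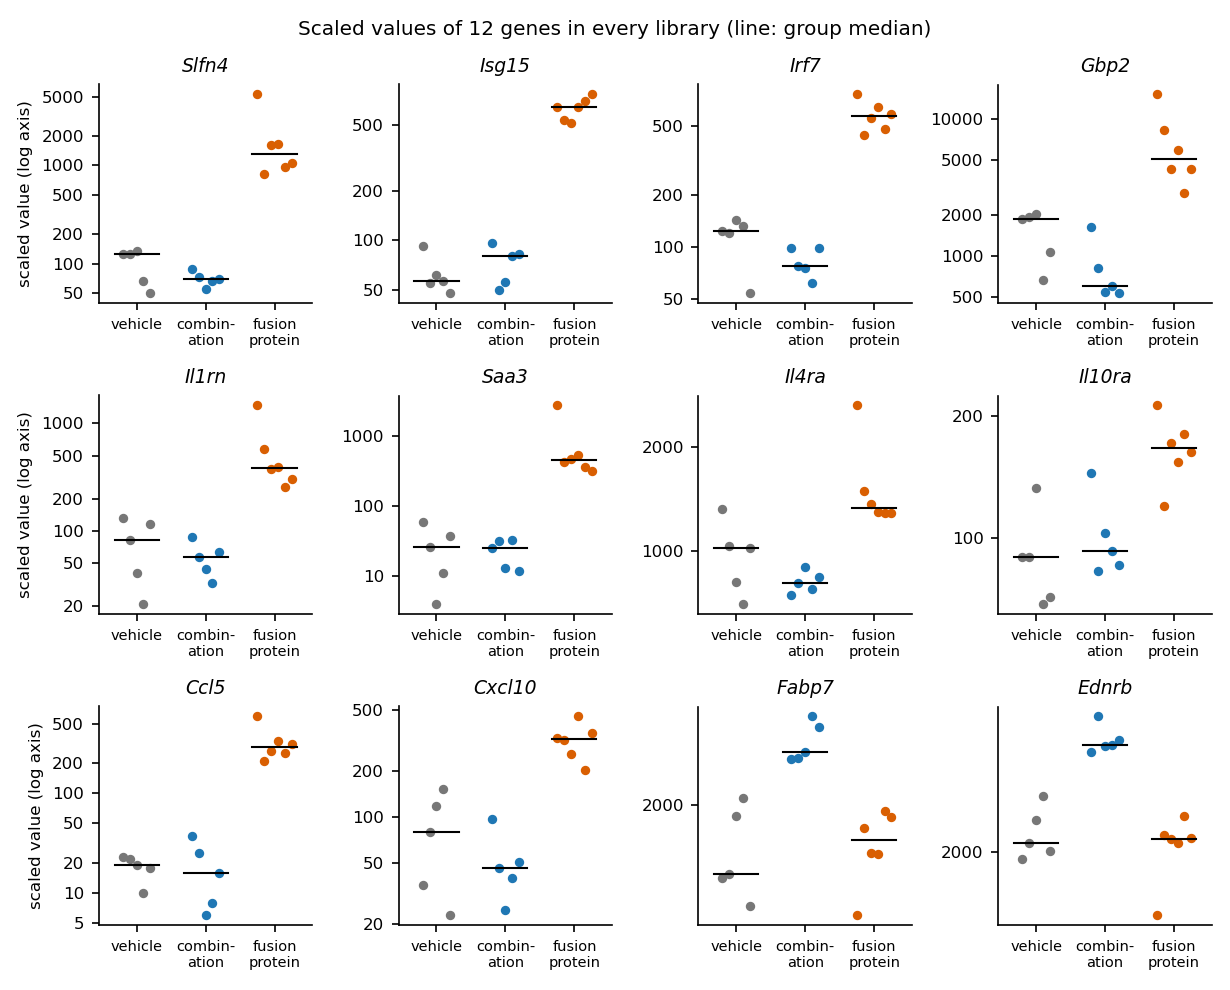
Scaled values (log axis) of 12 genes in the 5 vehicle, 5 combination and 6 fusion protein libraries, each point 1 library in the order of its replicate number and each line a group median. Slfn4, Isg15, Irf7, Ccl5, Cxcl10, Il1rn and Saa3 lie higher in every fusion protein library than in any combination library, and Fabp7 and Ednrb lie lower.

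Nearly all interferon-response genes were higher with the fusion protein. Of 46 listed genes 45 were tested. With the fusion protein 42 were higher, none was lower, and 37 did not overlap between the groups. Over all tested genes 7.35% were higher and 3.09% lay above without overlap. The median difference was 0.87, and the called members ranged up to 2.09. The count was 39 to 43 when any 1 library was left out, 40 after GC correction, 36 on label numbers from 12 upward and 32 with both, and the list median under these 3 settings was 0.83, 0.64 and 0.62. Many of these genes are switched on through a promoter element that answers to interferon, and the promoters of 4 members with low p-values are shown for that reason, from 250 bases before to 50 bases after the RefSeq start, on GRCm38.p6. Capitals mark GAAANNGAAA on the printed strand, with overlapping matches joined.

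Isg15, chr4:156200769-156201068, minus strand: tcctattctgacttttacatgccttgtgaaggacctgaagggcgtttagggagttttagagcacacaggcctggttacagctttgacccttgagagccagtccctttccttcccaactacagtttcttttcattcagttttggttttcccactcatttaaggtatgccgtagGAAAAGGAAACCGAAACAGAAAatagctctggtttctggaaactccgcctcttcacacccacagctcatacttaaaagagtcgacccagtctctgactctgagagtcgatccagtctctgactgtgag
Bst2, chr8:71537423-71537722, minus strand: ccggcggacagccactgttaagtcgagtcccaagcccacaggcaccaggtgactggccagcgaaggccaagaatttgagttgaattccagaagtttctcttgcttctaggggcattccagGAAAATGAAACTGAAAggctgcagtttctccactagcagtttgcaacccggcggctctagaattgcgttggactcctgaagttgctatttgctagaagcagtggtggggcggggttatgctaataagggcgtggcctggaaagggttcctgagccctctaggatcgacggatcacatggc
Oas1a, chr5:120907476-120907775, minus strand: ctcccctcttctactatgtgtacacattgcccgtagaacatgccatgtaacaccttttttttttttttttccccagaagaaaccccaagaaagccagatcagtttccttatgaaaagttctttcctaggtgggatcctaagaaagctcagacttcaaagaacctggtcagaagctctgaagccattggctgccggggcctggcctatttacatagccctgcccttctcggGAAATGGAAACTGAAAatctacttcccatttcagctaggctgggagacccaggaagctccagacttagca
Irf7, chr7:141266375-141266674, minus strand: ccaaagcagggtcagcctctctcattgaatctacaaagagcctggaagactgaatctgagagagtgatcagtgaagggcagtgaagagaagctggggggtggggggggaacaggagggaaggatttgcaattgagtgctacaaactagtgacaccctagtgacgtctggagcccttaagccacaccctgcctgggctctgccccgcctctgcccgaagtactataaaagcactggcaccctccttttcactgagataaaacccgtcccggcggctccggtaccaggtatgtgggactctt

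The Isg15 window holds 3 overlapping matches that start 78 to 66 bases before the start, Bst2 holds 2 from 130 bases before it and Oas1a holds 2 from 20 bases before it. The Irf7 window has none of these letters, and neither has that of Oasl1. Counted on both strands, GAAANNGAAA occurs in 15 of 38 windows of tested interferon-response genes (39.5%), in 25.0% of the windows of genes called higher by 1 or more, in 7.23% of all called higher, in 2.62% of those called lower and in 3.04% of all 13180 windows of tested genes. For TTCNNNGAA, the letters read by STAT dimers, the shares were 21.1%, 14.3%, 7.03%, 6.36% and 6.72%. Of the 45 tested interferon-response genes 33 had a promoter entry, some with more than 1 start, and a match of letters is no measurement of binding.

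Isg15, a ubiquitin-like modifier and one of the first interferon-induced genes, had scaled values of 96, 50, 56, 81 and 83 with the combination and 512, 642 and 767 with the fusion protein. The fusion protein libraries were all more than 5 times the highest combination library, and the difference was 2.09 ± 0.10 (adjusted p = 1.54e-10). Irf7, the transcription factor that amplifies type I interferon responses, had 99, 78, 75, 62 and 99 against 447, 570 and 764, a difference of 1.89 ± 0.12 (adjusted p = 2.37e-08). The values of vehicle were 48 to 92 for Isg15 and 54 to 144 for Irf7, next to those of the combination. Oasl1, a regulator of Irf7 translation, differed by 1.09 ± 0.10 (adjusted p = 2.31e-06), and Tor3a, an interferon-induced torsin, by 0.86 ± 0.07 (adjusted p = 1.13e-06). Ifit3, an RNA-binding antiviral gene with a near-identical copy (Ifit3b) between which reads may be split, differed by 1.96 ± 0.26 (adjusted p = 0.000626). Zbp1, a sensor of nucleic acids, had 118, 47, 32, 31 and 42 with the combination and 227, 409.5 and 1005 with the fusion protein and differed by 1.89 ± 0.25 (adjusted p = 0.000529).

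**Figure D3:**
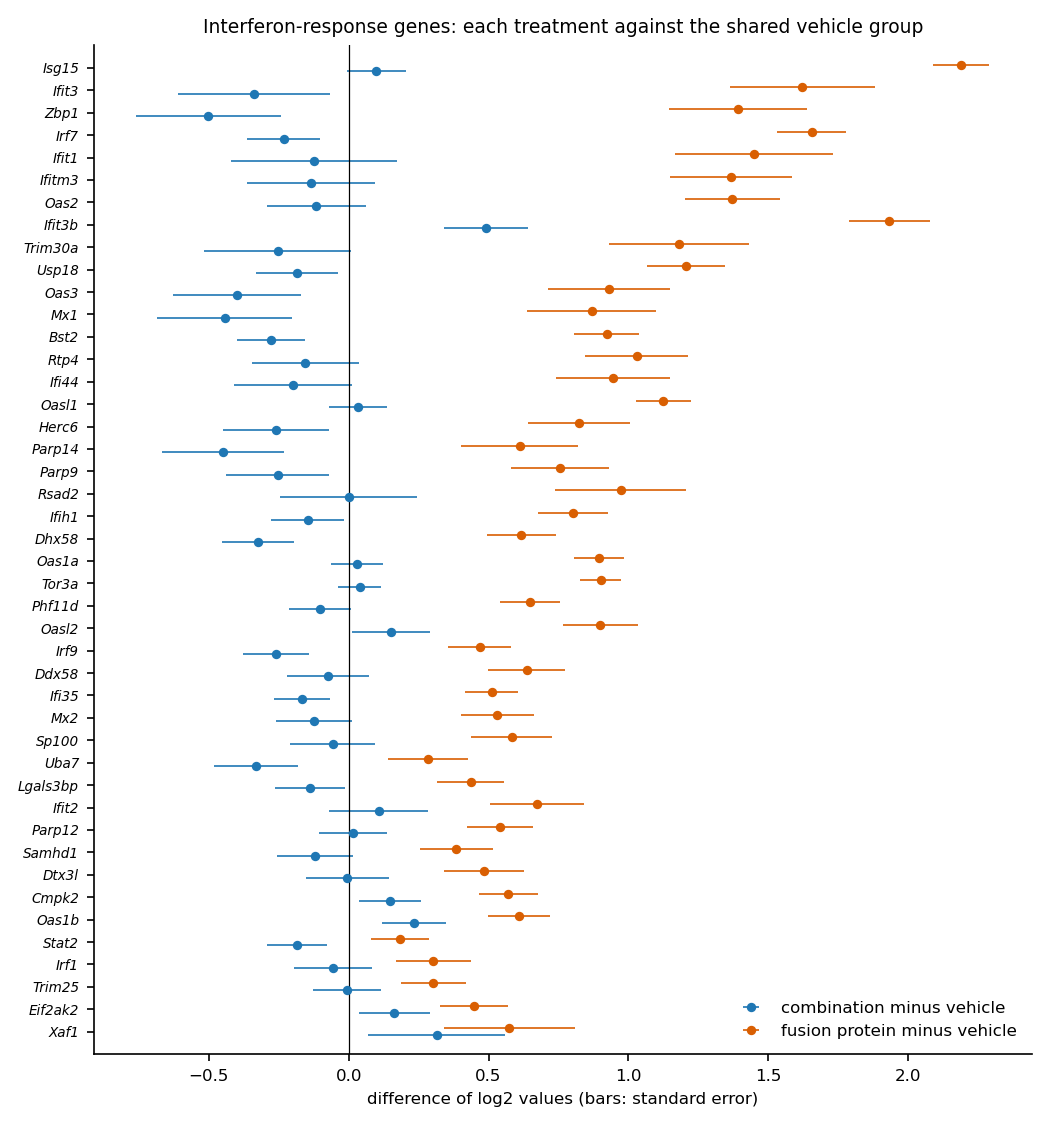
Difference from vehicle (horizontal axis, log2 values, bars are standard errors) of 44 of the 45 tested interferon-response genes under each treatment, ordered by the difference between the treatments. The fusion protein point lies to the right of the combination point in all 44 rows; both series share the same 5 vehicle libraries.

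Set side by side against the shared vehicle libraries, 40 of the 45 genes were higher with the fusion protein (12.0% of all tested genes were) and 1 with the combination (24.2%), which had 0 lower (12.3%). The medians were 0.76 and -0.12. Isg15 was at 2.19 and 0.10, and Irf7 at 1.65 and -0.23. Within the fusion protein group the list median of each library relative to all libraries was highest in replicate 1, at 0.91, and lowest in replicates 5 and 6, at 0.14 and 0.27, which carry the late label numbers. All 6 were above the combination range of -0.49 to -0.26.

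Members of 2 further families of interferon-induced genes were also higher with the fusion protein. Of 12 tested GTPases that act against intracellular microbes, 11 were higher and none lower, with a median of 0.90; 2 were below the filter and 2 listed genes were not analysed here. Only 4 of the 12 had every fusion protein library above every combination library, and the list median of fusion protein replicate 5 (0.00334) lay below that of combination replicate 1 (0.10). Against vehicle 6 were higher with the fusion protein (12.0% of all tested genes were) and none with the combination (24.2%). Gbp2 had 1616, 821, 545, 604 and 536 with the combination and 2867, 5144 and 15161 with the fusion protein, a mean ratio of 8.28 and a difference of 2.77 ± 0.42 (adjusted p = 0.00175); a near-identical copy, Gbp2b, makes the split of its reads uncertain. Gbp3 was higher by 1.77 ± 0.22 (adjusted p = 0.000383). The GTPase count fell from 11 to 7 without combination replicate 5 and to 4 on label numbers from 12 upward, where the median was 0.41. All 6 tested Schlafen genes were higher with no overlap, at a median of 1.09. Slfn4 is among them and is also counted with the interleukin 10 and STAT3 targets, so those counts are not independent. Over all tested genes 7.35% were higher and 3.09% lay above without overlap. Beside Slfn4, Slfn8 differed by 1.25 ± 0.19, Slfn1 by 1.17 ± 0.17 and Slfn2 by 1.01 ± 0.17 (adjusted p = 0.00116, 0.000613 and 0.00246). The Schlafen genes resemble one another in sequence, so reads may be split among them.

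The 5 tested interferon receptor genes gave no call by limma (1 without fusion protein replicate 2 or combination replicate 1), with a median of 0.02; Ifngr1 had the lowest p, at 0.17 (95% interval 0.04 to 0.30, adjusted p = 0.051), and Ifngr2 was at -0.05 (95% interval -0.17 to 0.06). The 3 listed interferon genes were below the filter, and the source of an interferon signal was not measured.

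Chemokines, the proteins that attract leukocytes, were higher or not called. Of 26 listed chemokines 12 were below the filter. Of the other 14, 8 were higher and none lower (7.35% and 22.2% over all genes), with a median of 0.76. Ccl5, which attracts T cells and monocytes, had 37, 25, 6, 8 and 16 with the combination and 209, 289.5 and 590 with the fusion protein, a mean ratio of 17.8 and a difference of 2.03 ± 0.16 (adjusted p = 8.2e-07). Cxcl9 and Cxcl10, ligands of the chemokine receptor CXCR3 on T cells, differed by 1.70 ± 0.24 and 1.53 ± 0.21 (adjusted p = 0.000956 and 0.000566), with no overlap in either. In Cxcl9 combination replicate 1 had 149 and the other 4 had 14 to 25. These 4 values and most combination values of Ccl5 lay below the filter level of 31.8, so the Ccl5 ratio rests on low values. Ccl9 was higher by 1.31 ± 0.25 (adjusted p = 0.00515). On label numbers from 12 upward 6 chemokines were called higher and the median was 0.28.

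Genes of NF-kB signalling and of the acute-phase response were also mostly higher. Of 17 tested NF-kB genes 13 were higher and none lower (median 0.56), against 7.35% and 22.2% over all genes. Il1b, outside the rule for named genes, encodes a ligand of the receptor that the Il1rn product blocks. It differed by 1.57 ± 0.36 (adjusted p = 0.00942), and by 0.84 on label numbers from 12 upward. Tnf and Il6 were below the filter. The adhesion molecules Icam1, Selp and Vcam1, which hold leukocytes to vessel walls, differed by 0.70 ± 0.13, 1.11 ± 0.21 and 0.66 ± 0.11 (adjusted p = 0.00257, 0.00446 and 0.00156), and the microbial sensor Tlr2 by 0.74 ± 0.13 (adjusted p = 0.00245). Vcam1 was at 0.42 on label numbers from 12 upward, where the median of the list was 0.20 with 7 members called.

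Of 11 tested acute-phase genes 9 were higher (7.35% of all genes were), with a median of 0.96. Saa3, a serum amyloid A made outside the liver, had 25, 32, 13, 33 and 12 with the combination and 318, 450 and 2715 with the fusion protein. The lowest fusion protein library was far above the highest combination library, the mean ratio was 34.9, and the difference, the largest of the list, was 2.64 ± 0.39 (adjusted p = 0.00159). The combination values lay near or below the filter level of 31.8, so the ratio rests on low values. Saa2 and Saa1, near-identical copies, differed by 2.01 ± 0.41 and 1.97 ± 0.46 (adjusted p = 0.00701 and 0.0108); Saa1 was at 1.22 on label numbers from 12 upward. Lcn2, which binds bacterial iron carriers, and Steap4, a metalloreductase, were higher by 1.04 ± 0.28 and 0.96 ± 0.17 (adjusted p = 0.0161 and 0.003). Of 14 tested complement genes 6 were higher: C3, the central component, differed by 1.21 ± 0.18, C4b by 0.59 ± 0.10, C1ra by 0.57 ± 0.09 and Cfp by 0.70 ± 0.15 (adjusted p = 0.00104, 0.00246, 0.000881 and 0.00647).

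Genes of antigen presentation by class I were higher. Of 21 MHC class I and peptide-loading genes 18 were higher and none lower (median 0.52), 14 of them with no overlap. Over all tested genes 7.35% were higher and 3.09% lay above without overlap. Tapbp, which loads peptides onto class I, had 930, 918, 908, 800 and 881 with the combination and 1394, 1444 and 1675 with the fusion protein and differed by 0.66 ± 0.07 (adjusted p = 1.05e-05). The peptide transporter Tap2 and the immunoproteasome subunit Psmb8 differed by 1.03 ± 0.11 and 1.12 ± 0.15 (adjusted p = 2.2e-05 and 0.000435). None of these 3 genes overlapped between the groups. Of 7 tested MHC class II genes 1 was higher, the master regulator Ciita (0.34 ± 0.09, adjusted p = 0.0135; 0.193 on label numbers from 12 upward), and the median was 0.14. Without combination replicate 1 the class II count was 3. The difference between the 2 classes was not tested.

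Markers of myeloid cells moved with these groups. Of 9 tested monocyte markers 7 were higher and none lower, with a median of 1.07 (1.10 after GC correction, 0.92 on label numbers from 12 upward). Ccr2, the receptor that draws monocytes from blood, had 438, 406, 386, 292 and 419 with the combination and 539, 1016 and 2152 with the fusion protein and differed by 1.20 ± 0.22 (adjusted p = 0.00446), with no overlap. Ms4a4c, Plac8, Ms4a6c and F10 were higher by 1.32 ± 0.15, 1.27 ± 0.17, 1.03 ± 0.18 and 1.09 ± 0.20 (adjusted p = 7.81e-05, 0.000435, 0.00296 and 0.00339). The monocyte marker Ly6c2 was not called (0.43, adjusted p = 0.0542). Summed scaled values of the list were 3488 to 11811 with the fusion protein and 2118 to 3631 with the combination, and the sums overlapped. Whether there were more such cells or more of each RNA per cell cannot be told apart in whole ganglia, here and in every list of cell markers.

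Of 21 tested macrophage markers 11 were higher, 1 lower and 9 neither, with a median of 0.51 and summed scaled values of 8214 to 20273 against 6189 to 8592. The members did not move as one. Ctss, a lysosomal protease, Cd14, a co-receptor for bacterial products, Mpeg1 and Cd68 were higher by 1.13 ± 0.17, 1.23 ± 0.22, 1.01 ± 0.20 and 0.81 ± 0.16 (adjusted p = 0.00104, 0.00324, 0.00534 and 0.00543), with Cd14 at 0.71 on label numbers from 12 upward. The defining markers Csf1r (0.39, 95% interval 0.09 to 0.70) and Adgre1 (0.07, 95% interval -0.22 to 0.36) were not called. The part of myeloid cell number in the interferon, interleukin 10 and acute-phase differences was not tested.

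Other blood-borne cells gave fewer calls. Of 13 tested neutrophil markers 3 were higher: Csf3r, the G-CSF receptor (1.49 ± 0.33, adjusted p = 0.009), Cxcr2, a chemokine receptor (1.25 ± 0.34, adjusted p = 0.0175; 0.74 on label numbers from 12 upward), and Hp, haptoglobin, which is also an acute-phase gene (1.30 ± 0.31, adjusted p = 0.0112; 2.04 on those numbers). Fusion protein replicate 1 stood far above the rest in Csf3r, at 1934 against 274 to 605, and in Cxcr2, at 1152 against 154 to 261. The granule genes S100a8 (0.05, 95% interval -0.54 to 0.64) and S100a9 (0.14, 95% interval -0.51 to 0.78) were not called. Of 17 lymphocyte markers 11 were below the filter; Gzma, a granzyme of killer cells, was higher by 0.69 ± 0.11 (adjusted p = 0.000943), and Lck, a T cell kinase, by 0.30 ± 0.09 (adjusted p = 0.0175; 0.0504 without combination replicate 2). None of 8 erythroid genes was called, by limma with adjustment over all genes; Hbb-bs had a 95% interval of -1.06 to 0.94.

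**Figure D4:**
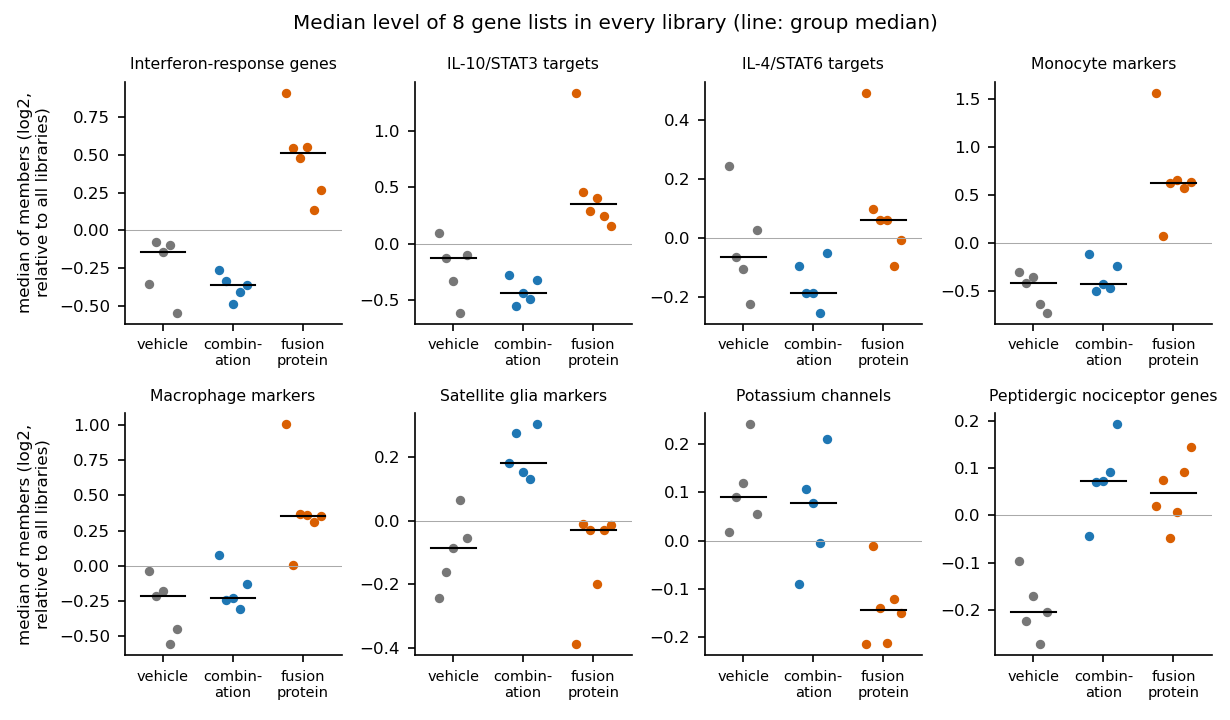
Median level of 8 gene lists in each library (log2 values, each member taken relative to its mean over all 16 libraries), by group; lines are group medians. The interferon-response and IL-10/STAT3 medians of all 6 fusion protein libraries exceed those of all 5 combination libraries, satellite glia medians are lower in all 6, and fusion protein replicate 1 lies apart in several panels.

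Metallothioneins, which bind zinc and copper, were among the genes that differed most. Mt2 had 932, 425, 535, 317 and 500 with the combination and 2122, 3202 and 6447 with the fusion protein, a difference of 2.40 ± 0.51 (adjusted p = 0.00809), and its neighbour Mt1 differed by 1.86 ± 0.43 (adjusted p = 0.0107). Neither overlapped between the groups. Against vehicle, Mt2 was at 1.41 with the fusion protein and -0.99 with the combination, and neither was called (adjusted p = 0.0581 and 0.167). Both genes stand on the glucocorticoid-response list, of whose 16 members 3 were higher (these and Lcn2) and 1 lower (Sult1a1, -0.33 ± 0.10, adjusted p = 0.0258; 0.17 on label numbers from 12 upward, 0.0756 and 0.0539 without combination replicates 2 and 4), at a median of -0.03.

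Of 23 tested immediate-early genes 8 were higher (7.35% of all genes were), at a median of 0.39. Against vehicle the list median was 0.02 with the fusion protein, with 0 members higher and 1 lower. With the combination it was -0.31, with 0 higher and 8 lower. Against vehicle 12.0% of all genes were higher and 13.7% lower with the fusion protein, and 24.2% and 12.3% with the combination. Zfp36, which destabilises cytokine mRNAs, differed by 0.94 ± 0.23, Jun by 0.66 ± 0.17, Gadd45b by 0.52 ± 0.08 and Ier2 by 0.41 ± 0.11 (adjusted p = 0.0117, 0.0138, 0.000892 and 0.0124). This group depended on the processing. After GC correction 2 members were called and the median was 0.15; Jun, Gadd45b and Ier2 were at adjusted p = 0.0961, 0.0689 and 0.369. On label numbers from 12 upward Zfp36 was at 0.45, and with both steps the median was -0.17 and Ier2 was at -0.10. Without combination replicate 5 the count was 5.

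Satellite glia genes were lower with the fusion protein than with the combination. Of 12 markers of these cells, which wrap the neuron bodies, 7 were lower and 1 higher (22.2% and 7.35% over all genes). The higher one was Sox10, shared with Schwann cells (adjusted p = 0.112 after GC correction). The list median was -0.30, and 5 markers had every fusion protein library below every combination library (6.44% of all genes did). Fabp7, a fatty acid binding protein of satellite glia, had 2578, 2595, 2680, 3257 and 3080 with the combination and 1086, 1644 and 1932 with the fusion protein, a difference of -0.78 ± 0.14 (adjusted p = 0.00337). Ednrb, the endothelin B receptor, had 2985, 3440, 3057, 3071 and 3128 against 1551, 2108 and 2312 and differed by -0.59 ± 0.09 (adjusted p = 0.000514). In both genes the groups were apart and fusion protein replicate 1 was the lowest library. Cdh19, a glial cadherin, differed by -0.64 ± 0.13 (adjusted p = 0.00454), and Ptprz1, a receptor phosphatase, by -0.48 ± 0.11 (adjusted p = 0.00669; -0.29 after GC correction).

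The potassium channel Kcnj10, which buffers potassium around neurons, was lower, at -0.41 ± 0.13 (adjusted p = 0.0246); the call ended on label numbers from 12 upward (0.058) and without fusion protein replicate 4 (0.0544), combination replicate 2 (0.0696) or combination replicate 5 (0.0711). Against vehicle the list median was 0.06 with the fusion protein and 0.31 with the combination, and Fabp7 was at 0.06 and 0.84. In that reference 1 marker was higher and 3 lower with the fusion protein, and 7 were higher and 1 lower with the combination. Over all genes 12.0% were higher and 13.7% lower with the fusion protein, and 24.2% and 12.3% with the combination. After GC correction 8 markers were lower (median -0.26), on label numbers from 12 upward 4 (median -0.22), and with both 3 (median -0.16). Summed scaled values of the 12 markers were 61347 to 101853 with the fusion protein and 78465 to 86773 with the combination and overlapped.

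Gfap, the filament that glia raise under stress, went the opposite way. It had 56, 38, 45, 23 and 21 with the combination and 96, 309 and 1448 with the fusion protein, without overlap, and vehicle had 19 to 737. The difference was 1.96 ± 0.57 (adjusted p = 0.0228), 1.00 on label numbers from 12 upward, and at adjusted p = 0.0518 without combination replicate 2. Against vehicle it was at 0.88 with the fusion protein and -1.09 with the combination, and neither was called. Gfap also stands on the list of spinal cord markers, of which the other 2 that were tested, at -0.10 and -0.07, were not called; the part of spinal cord tissue in the Gfap difference was not tested.

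Among the 15 largest decreases were several genes outside the satellite glia list. Fmo2, a flavin monooxygenase, had the largest, with 487, 654, 436, 994 and 539 in the combination libraries and 96, 233 and 384 with the fusion protein, and differed by -1.15 ± 0.29 (adjusted p = 0.013; -0.70 and 0.085 on label numbers from 12 upward). Gjc3, a connexin of myelinating glia, had 754, 985, 813, 800 and 740 against 123, 437 and 474, a difference of -0.97 ± 0.23 (adjusted p = 0.0105). Neither gene overlapped between the groups, and fusion protein replicate 1 was the lowest in both. Abca9, a lipid transporter, Gulp1, an adaptor for engulfment, and Slco1a4, an organic anion transporter, were lower, at -0.83 ± 0.18, -0.73 ± 0.14 and -0.73 ± 0.19 (adjusted p = 0.00687, 0.00325 and 0.0147). Smco3 and Prom1 were lower, at -0.81 ± 0.19 and -0.79 ± 0.16 (adjusted p = 0.009 and 0.00613), and at -0.53 and -0.49 on label numbers from 12 upward. Hif3a and Hlf were lower, at -0.72 ± 0.14 and -0.75 ± 0.19 (adjusted p = 0.00349 and 0.0137), with Hif3a at -0.40 on those numbers. Megf10, an engulfment receptor, and Aspa, which breaks down N-acetylaspartate, were lower, at -0.70 ± 0.21 and -0.68 ± 0.19 (adjusted p = 0.0235 and 0.0189) and were not called after GC correction (0.0654 and 0.0513) or without combination replicate 2 (0.0653 and 0.0566); Megf10 was at -0.43 on label numbers from 12 upward.

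Myelinating Schwann cell genes gave 1 call in each direction among 12 (median -0.08), the higher one lost in 7 and the lower one in 2 of the repeats that left out 1 library. The myelin genes Mbp and Prx were not called, with 95% intervals of -0.26 to 0.36 and -0.11 to 0.41. Fibroblast markers gave 2 lower among 12: Lum, a collagen-binding proteoglycan (-0.53 ± 0.10, adjusted p = 0.00251), which had 1445 to 1813 with the combination and 843 to 1232 with the fusion protein, and Dcn (-0.33 ± 0.10, adjusted p = 0.0205), which was not called after GC correction (0.191) or without combination replicate 5 (0.0628). Endothelial markers gave 1 call, Ly6c1 (0.28 ± 0.10, adjusted p = 0.0428), which is also an interferon-induced gene and lost its call in 10 of the 16 repeats that left out 1 library. Pecam1 and Cdh5, which define vessels, had 95% intervals of -0.17 to 0.15 and -0.10 to 0.33. Of 23 collagen and basement membrane genes 4 were higher and 4 lower, against 7.35% and 22.2% over all genes. The higher ones, which all encode basement membrane components, were Col4a1 at 0.61 ± 0.10, Col4a2 at 0.67 ± 0.11, Col18a1 at 0.80 ± 0.14 and Hspg2 at 0.45 ± 0.12 (adjusted p = 0.00125, 0.00184, 0.00281 and 0.0134; Hspg2 0.153 on label numbers from 12 upward). Against vehicle these 4 lay at -0.55, -0.70, -0.85 and -1.09 with the combination and at 0.06, -0.04, -0.05 and -0.64 with the fusion protein. The count of lower genes went from 4 to 2 without combination replicate 2 or 5.

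Genes of the sensory neuron types were lower with the fusion protein or not called. None of 10 tested peptidergic nociceptor genes was called (1 lower without fusion protein replicate 2; median -0.06; limma, adjusted over all genes): Calca, which encodes the pain peptide CGRP, had 16436, 16220, 19189, 17160 and 15537 with the combination and 15665, 17328 and 21174 with the fusion protein, with a 95% interval of -0.11 to 0.26 for the difference. The groups overlapped widely. Tac1, the gene of substance P, had a 95% interval of -0.22 to 0.12. Of 15 non-peptidergic and itch neuron genes 8 were lower (median -0.24), against 22.2% over all genes. Among them was the leukotriene receptor Cysltr2 (-0.37 ± 0.09, adjusted p = 0.00871). Mrgprd, a marker of these neurons, was not called, with a 95% interval of -0.33 to 0.05. That count was 3 without combination replicate 2 and 5 without fusion protein replicate 4 or combination replicate 5. Of 11 genes of large-diameter neurons 5 were lower (median -0.23), 3 without combination replicate 2 and 1 after GC correction.

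Ion channel genes were lower or not called, with 3 exceptions in the lists below, and by small amounts. Of 24 sodium and calcium channel genes 8 were lower and none higher (22.2% of all genes were lower; median -0.19), and of 42 potassium channel genes 18 were lower and 1 higher (median -0.22). Scn9a, the sodium channel Nav1.7 that sets pain thresholds, had 14256, 18933, 17397, 17660 and 18146 with the combination and 12140, 13008 and 15495 with the fusion protein, with overlap, and differed by -0.35 ± 0.09 (adjusted p = 0.0114). Scn1a, Scn7a and Scn3b were lower, at -0.38 ± 0.09, -0.39 ± 0.08 and -0.32 ± 0.08 (adjusted p = 0.00766, 0.00462 and 0.00826). After GC correction Scn9a, Scn1a and Scn7a were at -0.15, -0.20 and -0.22 and stayed below an adjusted p of 0.05. The nociceptor channel Nav1.8, Scn10a, outside the rule for named genes, was at 0.01 ± 0.10 (adjusted p = 0.938).

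Kcnj3, a G protein gated channel, had 904, 931, 1003, 1011 and 1170 with the combination and 660, 743 and 843 with the fusion protein and was lower, at -0.37 ± 0.08 (adjusted p = 0.00553; -0.22 after GC correction). Kcnk2, a mechanically gated leak channel, and Kcnq5, a subunit of the M current, were lower, at -0.33 ± 0.08 and -0.37 ± 0.09 (adjusted p = 0.0074 and 0.00827); Kcnk2 was not called on label numbers from 12 upward (0.066), and Kcnq5 was at -0.21 after GC correction. Without combination replicate 2 the count of lower potassium channels was 8, and without fusion protein replicate 4 or combination replicate 5 it was 10; with GC correction and label numbers from 12 upward together it was 3, and 2 for sodium and calcium channels. Without combination replicate 1 the lower sodium and calcium channels numbered 13. Against vehicle the potassium channel median was -0.25 with the fusion protein and -0.05 with the combination. Of 25 TRP, Piezo, ASIC and P2X channels 2 were higher and 9 lower (median -0.10), with 4 or 5 lower in 4 of the repeats without 1 library (fusion protein replicate 4 or 5, combination replicate 4 or 5).

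Of 17 tested receptors through which pain can be relieved 4 were lower (median -0.17), a share near the 22.2% of all genes, and 7 without fusion protein replicate 2 or combination replicate 1. Galr1, a galanin receptor, had 81, 102, 96, 61 and 109 with the combination and 37, 39.5 and 56 with the fusion protein, without overlap, and was lower, at -0.48 ± 0.09 (adjusted p = 0.00251). Cnr1, the cannabinoid receptor of neurons, was lower, at -0.39 ± 0.10 (adjusted p = 0.0115; 0.0744 on label numbers from 12 upward). The opioid receptors Oprm1, Oprd1 and Oprk1, outside the rule for named genes, were at -0.25 ± 0.10, -0.25 ± 0.09 and -0.16 ± 0.07 and were not called (adjusted p = 0.0575, 0.0553 and 0.0817). Of 26 receptors for sensitising mediators 3 were higher and 4 lower (median 0.06), against 7.35% and 22.2% over all genes. The higher count was 5 without combination replicate 1. The purine receptor P2ry1 was lower, at -0.37 ± 0.07 (adjusted p = 0.00281), and Lifr, the receptor of leukaemia inhibitory factor, at -0.48 ± 0.11 (adjusted p = 0.00793). Lpar1, a lysophosphatidic acid receptor, was at -0.55 ± 0.12 (adjusted p = 0.00717), and at -0.30 on label numbers from 12 upward. Tnfrsf1a, the main TNF receptor, was higher by 0.67 ± 0.15 (adjusted p = 0.00789), at 0.34 on those numbers and at adjusted p = 0.0553 after GC correction. Of 15 tested nerve injury genes 3 were higher and 1 lower (median 0.08), with 2 lower without fusion protein replicate 2 or combination replicate 1.

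**Figure D5:**
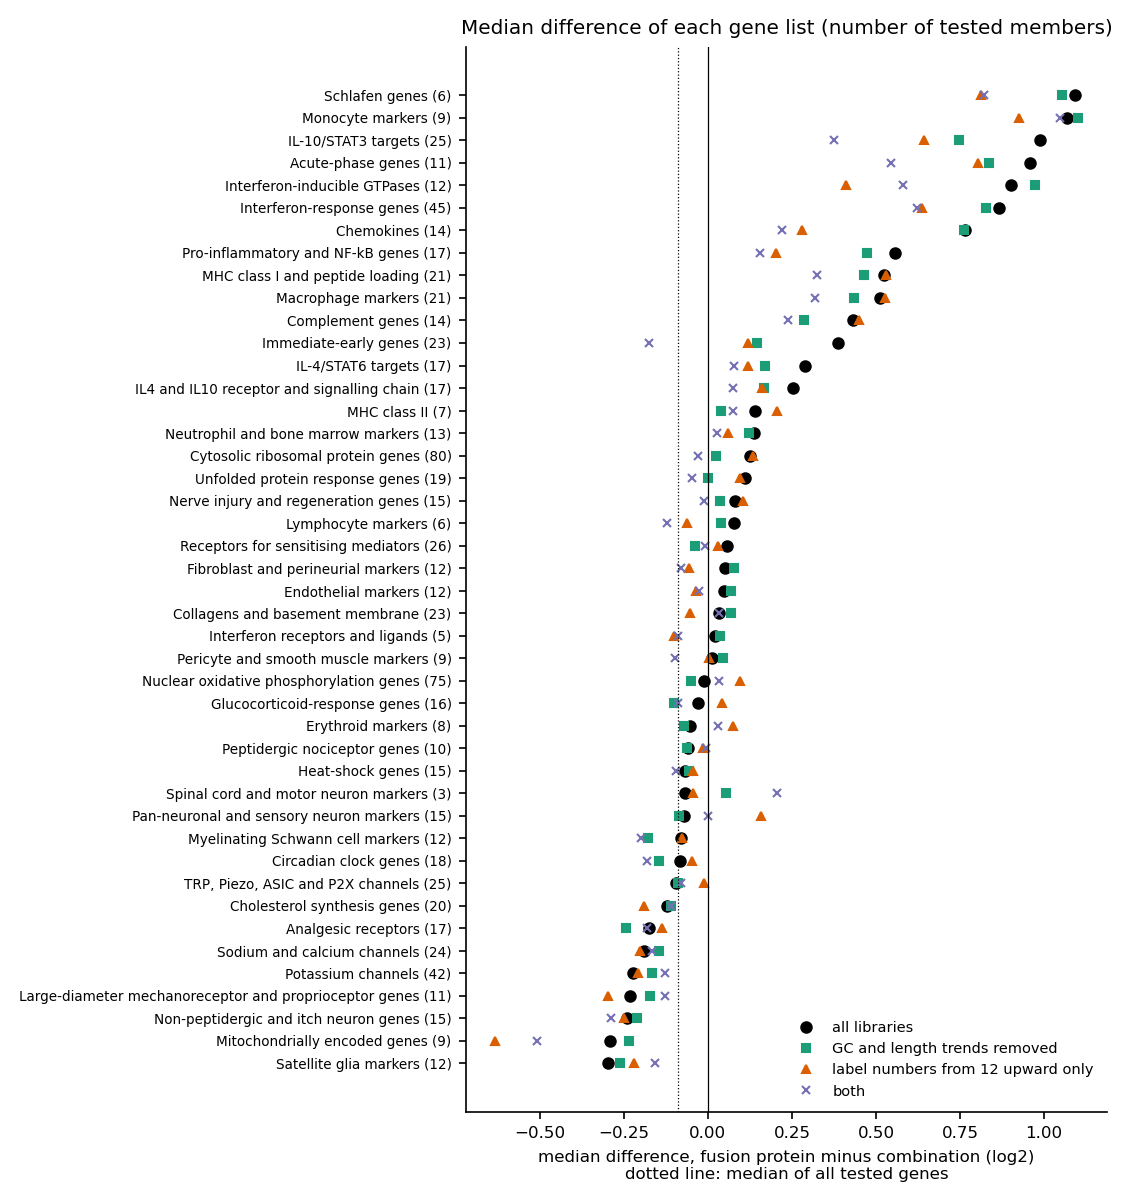
Median difference, fusion protein minus combination (horizontal axis, log2 values), of 44 gene lists with all libraries, after GC correction, with label numbers from 12 upward, and with both; the dotted line is the median of all tested genes (-0.09). The interferon-response median lies between 0.62 and 0.87 under the 4 settings, and the immediate-early median moves from 0.39 to -0.17.

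Ribosomal protein and respiratory chain genes gave calls that single libraries decided. Of 80 tested ribosomal protein genes 17 were higher and 1 lower (median 0.12), and 9 and 5 after GC correction (median 0.02). The higher count was 6, 7 and 11 without fusion protein replicates 4, 5 and 6, 26 without fusion protein replicate 2, 33 without combination replicate 1, and 6, 9 and 4 without combination replicates 2, 4 and 5. Rpl18 and Rps9, proteins of the large and the small subunit, differed by 0.51 ± 0.12 and 0.57 ± 0.14 (adjusted p = 0.00789 and 0.0118). Of 75 tested nuclear genes of oxidative phosphorylation 4 were higher and 10 lower, at a median of -0.01, and the higher count moved by over 1.5 times in all 11 repeats without 1 treated library, to 1 or 2 or to 9 or 12 (12 without combination replicate 1). The lower count was 6 without combination replicate 2. Mitochondrially encoded genes gave 2 lower among 9 (median -0.29), the same share as the 22.2% of all genes, and 0 to 6 when 1 library was left out (0 without combination replicate 2, 5 and 6 without fusion protein replicates 2 and 1); polyA selection and the 6 such genes below the filter limit that list.

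Of 20 cholesterol synthesis genes 8 were lower and 1 higher (median -0.12), with the sterol dehydrogenase Nsdhl at -0.31 ± 0.06 (adjusted p = 0.00489). Over all genes 22.2% were lower and 7.35% higher, here and for the clock genes below. The lower cholesterol count was 3 without fusion protein replicate 4 and 4 without any of fusion protein replicates 5 and 6 and combination replicates 2 and 5. Of 18 tested circadian clock genes 6 were lower and 1 higher (median -0.08): Per3, a period gene, had 435, 483, 371, 512 and 351 with the combination and 129, 256 and 318 with the fusion protein and was lower, at -0.63 ± 0.16 (adjusted p = 0.0121), and Nr1d2, a nuclear receptor of the clock, was lower, at -0.46 ± 0.10 (adjusted p = 0.00659). The core genes Arntl and Per1, outside the rule for named genes, were at 0.11 ± 0.08 and 0.00 ± 0.10 (adjusted p = 0.266 and 0.998). The time of day of collection is not given in the sources used here. Heat-shock genes gave 2 higher and 1 lower among 15, and unfolded protein response genes 3 higher among 19, at medians of -0.07 and 0.11. When 1 library was left out the heat-shock counts were 1 or 2 higher and 0 to 2 lower, and the unfolded protein counts 1 to 3 higher and 0 to 4 lower, with 4 lower without combination replicate 1 and 1 higher without vehicle replicate 2, fusion protein replicate 1 or combination replicate 2, 4 or 5.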

How the data were processed

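RNA sequencing of polyA-selected RNA from L3 to L5 dorsal root ganglia was available as 1 deposited table of 16 libraries. The values were made by the authors with FastQC, STAR, HTSeq and DESeq2 on GRCm38, per the submitters' processing notes, whose versions and settings are not given in the sources used here. The deposited values are variance-stabilised expression on a log2 scale. The 2 columns of deposited p-values were not used, since the comparison behind them is not named. The lowest 60 of 11441 distinct values fixed the 2 parameters of the transform, and its inverse gave whole numbers within 0.01 for 100% of the distinct values. These scaled values are normalised, so the depth of each library and its counting error are unknown.

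The test used the deposited log2 values of 13385 of 36722 genes with a mean over the 16 libraries of at least 6.99, which is 1 above the lowest value of the table, in 1 limma model of 3 groups (limma 3.58.1, R 4.3.3; empirical Bayes with trend and robust settings, no covariate, two-sided). All p-values on genes are Benjamini-Hochberg adjusted over these genes, intervals are 95% intervals of the same fit, and intervals and errors are between libraries. The treatment was fixed by the labels. The members and gene lists were chosen with earlier results of these data known, so the counts of a list are descriptions beside the share over all genes. Some lists share members, so their counts are not independent. Genes were named by rule: the 15 largest called differences in each direction, up to 4 called members of each list by p (2 members where none was called), the receptor panel and the first 3 markers of each cell type; exceptions are named in the text. GC content, in percent, is a column the authors deposited beside the values, exonic length came from GENCODE M21 (GRCm38), and promoter windows from RefSeq (GRCm38.p6). Overlapping or near-identical genes may share reads, and whether counting used strand is not given in the sources used here. Alternatives were other filters, normalizations, weights, libraries, thresholds, the replicate number as a block and a covariate for label numbers from 12 upward. A further alternative, GC correction, removed each library's smooth trend on GC content and log2 exonic length. That trend was fitted with natural splines and need not be linear. Chosen after seeing the data were GC correction on late label numbers only and the repeat without fusion protein replicate 1 and combination replicate 1. The fit was tested on simulated data. 2 listed genes are not analysed here, and some genes of the lists and of the naming rule are not reported here by name. Python 3.11.15, pandas 2.3.3 and scipy 1.17.1 were used for tables and exact tests.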

Additional observations from a re-analysis of the deposited data

Results flagged for a closer look

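In 59 of 426 sets of values within a group, 1 library lay farther from the rest than Dixon's 95% limit; chance marks about 1 in 20 such sets. The highest log2 values of the fusion protein group for Slfn4, Saa3, Timp1, Il4ra, Msr1, Fcgr1, Arg1, Slfn2 and Ccl9 were in fusion protein replicate 1, at 12.40, 11.47, 11.53, 11.43, 9.50, 9.52, 9.55, 9.80 and 10.69 in that order. The highest log2 values of the fusion protein group for Tlr2, Selp, Steap4, Tapbp, Ctss, Mpeg1, Ms4a6c, Csf3r and Cxcr2 were in fusion protein replicate 1, at 8.53, 9.32, 11.08, 10.81, 11.31, 10.89, 9.78, 11.01 and 10.32 in that order. For Gadd45b, Il13ra1, Il1b, Ifi204, Srgn, Clec4e, Pyhin1 and Mefv, fusion protein replicate 1 had the highest log2 values of its group, at 8.00, 10.29, 10.64, 10.17, 12.08, 9.46, 9.28 and 9.15 in that order. The highest log2 values of the combination group for Zbp1, Cxcl9, Arntl and Pyhin1 were in combination replicate 1, at 7.83, 8.03, 7.60 and 7.44 in that order. The lowest log2 values of the fusion protein group for Gjc3, Megf10, Aspa, Ednrb, Cdh19, Abca8a and Bmp5 were in fusion protein replicate 1, at 7.86, 8.11, 8.68, 10.71, 10.03, 11.66 and 7.58 in that order. Combination replicate 4 was lowest of its group in the log2 value of Slfn2, at 7.71. The lowest log2 values of the fusion protein group for Lck, Tyk2 and Bst2 were in fusion protein replicate 2, at 7.15, 8.16 and 8.82 in that order. The highest log2 values of the combination group for P2ry1 and Cd163 were in combination replicate 5, at 10.96 and 8.72 in that order. For Stat6 and Scn10a, fusion protein replicate 4 had the lowest log2 values of its group, at 11.14 and 14.11 in that order. The lowest log2 value of the combination group for Stat5b was in combination replicate 2, at 9.42. The highest log2 value of the fusion protein group for Ifit3b was in fusion protein replicate 6, at 10.06. Fusion protein replicate 4 was highest of its group in the log2 value of Tyrp1, at 8.66. The highest list medians relative to all libraries of the fusion protein group for the IL4 and IL10 receptor and signalling chain, IL-10/STAT3 targets, IL-4/STAT6 targets, Schlafen genes, Acute-phase genes, MHC class I and peptide loading and Macrophage markers were in fusion protein replicate 1, at 0.45, 1.34, 0.49, 1.52, 1.22, 0.58 and 1.01 in that order. The lowest list median relative to all libraries of the fusion protein group for Erythroid markers was in fusion protein replicate 2, at -0.69. For Fibroblast and perineurial markers, combination replicate 1 had the highest list median relative to all libraries of its group, at 0.33. The lowest list median relative to all libraries of the combination group for Spinal cord and motor neuron markers was in combination replicate 1, at -0.25. The highest list median relative to all libraries of the fusion protein group for Sodium and calcium channels was in fusion protein replicate 2, at 0.0511. Of these values 40 belong to fusion protein replicate 1, 6 to combination replicate 1 and 5 to fusion protein replicate 2, which also stood apart over all genes; the cause was not tested.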

How the results depend on the processing

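The interferon-response count stayed within 1.5 times of its value of 42 under the alternatives run. The count of 984 higher genes became 1590 with array weights, 569 after GC correction, 366 with that and label numbers from 12 upward as a covariate, 426 after GC correction on those numbers only, and 297 at an adjusted p under 0.01. The count of 2966 lower genes became 1411 with quantile normalization, 4685 with array weights, 992 and 470 under the same GC and label-number settings, 1878 with GC correction and the replicate block, and 611 at an adjusted p under 0.01. Leaving out 1 library gave 547 to 1201 higher and 1452 to 4046 lower genes, and GC slope differences of 0.0893 to 0.119 and length slope differences of -0.0463 to -0.0311. Without filter, where 25023 genes were tested, and with the other settings, including the fit without fusion protein replicate 1 and combination replicate 1 (1404 and 4082 genes) and the fit of treated libraries only (929 and 2380), both counts stayed within 1.5 times; without filter 716 of 951 higher and 2100 of 2194 lower genes were also called with the filter. Replicate numbers are shared between the groups, and the labels state no pairing. The correlations of 5 same-numbered treated pairs ran from -0.149 to 0.453, and 1 of 5 combination libraries matched its own number best. Vehicle replicate 2 stood at 0.464 with fusion protein replicate 2 and at 0.598 with combination replicate 2. The other same-numbered pairs with vehicle ran from -0.196 to 0.345. So few pairs cannot decide whether libraries were paired. With the replicate block 889 genes were higher and 2540 lower. Of 5601 gene values under alternatives 120, in 22 genes, changed sign, and in 3 of these the gene was called with all libraries or under the alternative: Ier2, at -0.0616 with GC correction and the label-number covariate and -0.10 after GC correction on late label numbers only, and Jak2, at -0.34 on late label numbers only. The cause was not tested. In 250 of the 5601 values a gene called with all libraries kept its sign but was no longer called. Of 137 genes called with all libraries, 60 stayed called in every alternative other than an adjusted p under 0.01. With GC correction and the label-number covariate 64 genes lost their call. Read depth being unknown, the precision of low genes cannot be given beyond the spread between libraries.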

Other observations

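Some of the largest called differences were in genes outside the lists, chosen here after their values were seen. Ifi204, an interferon-induced DNA sensor, ranged from 63 to 105 in the combination libraries and from 366 to 1030 in the fusion protein libraries and differed by 1.68 ± 0.17 (adjusted p = 2.57e-05). Pyhin1, of the same gene family, differed by 1.21 ± 0.19 and Ifitm2, a membrane protein that blocks viral entry, by 0.95 ± 0.14 (adjusted p = 0.0017 and 0.000911). Genes of myeloid cells stood beside them: Clec4e, the receptor Mincle, differed by 1.28 ± 0.22, Mefv, which encodes pyrin, by 1.16 ± 0.22, Itgb2, the beta chain of leukocyte integrins, by 1.06 ± 0.23, and Srgn, a granule proteoglycan, by 1.38 ± 0.28 (adjusted p = 0.00315, 0.00489, 0.00753 and 0.00681). None of these 7 genes overlapped between the treated groups, but they were chosen after their values were seen. Over all genes 3.09% lay above without overlap. Clec4e and Mefv had mean scaled values of 28.2 and 21.8 with the combination and 25.2 and 16.4 with vehicle. These means lie below the filter level of 31.8, so both genes passed the filter only through the fusion protein libraries. Lrg1, a secreted glycoprotein of the acute phase, and Xdh, xanthine dehydrogenase, were higher by 1.05 ± 0.19 and 1.06 ± 0.14 (adjusted p = 0.00358 and 0.000416).

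Among the decreases were 2 lipid transporters next to Abca9, Abca8a at -0.68 ± 0.15 and Abca8b at -0.62 ± 0.13 (adjusted p = 0.00733 and 0.00634), and Ugt8a, which makes the galactolipids of myelin, at -0.62 ± 0.14 (adjusted p = 0.00816). Bmp5, a growth factor, ranged from 266 to 322 with the combination and from 85 to 172 with the fusion protein and differed by -0.66 ± 0.10 (adjusted p = 0.000881). Sox6 and Zbtb20, both transcription factors, were lower, at -0.54 ± 0.09 and -0.66 ± 0.14 (adjusted p = 0.00104 and 0.00514; -0.36 and -0.42 after GC correction), as was Lgr5, a receptor for R-spondins, at -0.64 ± 0.13 (adjusted p = 0.00574). Tyrp1, an enzyme of melanin synthesis, differed by -0.68 ± 0.11 (adjusted p = 0.000965), with 301 to 496 against 170 to 286.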
